A study of Mus musculus with 108 samples.

Results

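Blood cells of the embryo arise from hemogenic endothelium, endothelial cells that switch on the transcription factor RUNX1, round up and bud off as hematopoietic progenitors. Distal regulatory elements (enhancers) for this step are bound by ETS, GATA, RUNX, AP-1, TEAD and E-box factors, and many of them lie far from the gene they control. Described here are the distal sites of an enhancer reporter screen that were recovered from reporter-positive hemogenic endothelium and progenitors and were not recovered at the stages before. They are called gained sites below, a name for their pattern in the fragment lists.

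In the screen, fragments of open chromatin released by the Tn5 transposase from 5 stages were cloned, first into pDONR and then into the reporter vector pSKB, in front of the HSP68 minimal promoter and Venus-YFP. Integration into Hprt put each reporter at the same locus. The recipient HM-1 line derives from mouse embryonic stem cells, has a defective HPRT gene and regains it with the cassette. Cells differentiated in serum were taken as embryonic stem cells (ES), FLK1+ hemangioblasts (HB), first hemogenic endothelium (HE1: KIT+ TIE2+ CD41-), second hemogenic endothelium (HE2: KIT+ TIE2+ CD41+) and hematopoietic progenitors (HP: KIT+ TIE2- CD41+). Replicates 1 to 4 of each stage were gated on YFP as Negative, Low, Medium or High, and replicate 5 as Negative, Low or Medium/High, which gave 95 libraries. No gene expression was measured in these libraries, so the labelled cell types could not be checked against marker genes. Nothing in the labels says that replicates came from separate transfections or cultures, so p-values below measure the spread between these samples, which may be technical.

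Overlapping distal fragments of all 95 libraries merged into 58916 sites. Of these, 3922 were gained sites, chosen by having at least 1 YFP-positive fragment (any gate but Negative, replicates pooled) in each of HE1, HE2 and HP and no fragment of any gate in ES or HB. The choice used the presence of fragments at every stage, so that presence is a description and carries no test. Among sites positive at 3 stages and absent from the other two, the combination HE1, HE2 and HP was the most frequent, with 75 (ES, HE1 and HP) to 688 (HB, HE1 and HE2) sites in the remaining 9 combinations. These 3 stages also had the most distinct distal fragments (150319, 127263 and 98881, against 64539 in ES and 86802 in HB). The part of depth in this order was not tested. Just inside the rule lay 182 gained sites with exactly 1 positive fragment at each stage (3 in all), against a median of 9 for all gained sites. Just outside lay 617 sites that missed the rule through 1 fragment in ES or HB (median 7 positive fragments in HE1, HE2 and HP).

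The depth behind the lists was uneven. Libraries listed 504 to 131091 fragments (median 7918), each fragment once and without read numbers, and 25 to 30 PCR cycles without molecular identifiers preceded sequencing, so limits given below cover counting error only. Some lists held the same fragments as lists of another gate and replicate. HE1 Low replicate 4 shared 83.0% of the smaller list with HE1 Negative replicate 3, HE1 Medium replicate 2 shared 78.5% with HE1 Negative replicate 1, and HB Medium replicate 2 shared 57.4% with HP High replicate 2. Without those 4 HE1 libraries 3663 sites met the rule, and without the HB and HP pair 3854 did, with the site intervals kept.

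The depth of ES and HB limits what absence there shows for a single site. The distinct distal fragments numbered 64539 in ES and 86802 in HB, and a count of 0 there allows a share of up to 0.00465% and 0.00346% of the fragments of a stage (3 fragments). A gained site of median fill held 4 fragments of all gates in HE1, or 0.00266% of the 150319 distinct distal fragments of that stage, which is below both limits. A share above both limits at HE1, HE2 and HP alike was seen for 510 of 3922 gained sites. For the others, absence from ES and HB cannot be told apart from a level like that of at least 1 later stage. The 510 sites were also chosen for a count of 0 in ES and HB. Their later shares were taken without counting error, so absence is not established for them either. The sources used here do not say whether lists were held against open chromatin peaks stage by stage. Such a filter and a change of reporter activity cannot be told apart in these lists.

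The central 200 bp of 5 gained sites are shown because they hold at least 2 of 3 motif kinds that recur in the results below and lie at sites described there. They are genomic sequence of GRCm38 (mm10), plus strand, 5′ to 3′. Capitals mark the RUNX motif TGTGGT, the ETS motif AGGAAG and the GATA motif AGATAA on either strand (ACCACA, then CTTCCT, then TTATCT on the opposite one).
Rgs12 intron, chr5:35035761-35035960: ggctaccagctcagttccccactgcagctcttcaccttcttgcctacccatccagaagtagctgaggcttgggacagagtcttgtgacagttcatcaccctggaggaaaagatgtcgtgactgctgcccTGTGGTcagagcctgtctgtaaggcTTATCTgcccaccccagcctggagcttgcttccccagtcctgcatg
Cavin1 intron near Stat5a, chr11:100965862-100966061: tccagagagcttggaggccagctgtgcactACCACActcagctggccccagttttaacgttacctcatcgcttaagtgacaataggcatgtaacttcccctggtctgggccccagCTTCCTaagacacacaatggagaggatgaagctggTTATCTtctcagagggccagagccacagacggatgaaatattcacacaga
intergenic near Egfl7, chr2:26578557-26578756: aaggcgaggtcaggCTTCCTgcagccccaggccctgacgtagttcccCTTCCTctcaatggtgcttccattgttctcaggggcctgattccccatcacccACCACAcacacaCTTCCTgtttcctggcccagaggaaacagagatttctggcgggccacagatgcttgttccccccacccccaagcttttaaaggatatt
Spi1 intron, chr2:91082981-91083180: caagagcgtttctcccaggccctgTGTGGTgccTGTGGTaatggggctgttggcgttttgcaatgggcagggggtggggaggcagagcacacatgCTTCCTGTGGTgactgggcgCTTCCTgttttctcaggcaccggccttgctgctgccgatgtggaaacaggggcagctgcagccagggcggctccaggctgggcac
intergenic near Gfi1b, chr2:28599347-28599546: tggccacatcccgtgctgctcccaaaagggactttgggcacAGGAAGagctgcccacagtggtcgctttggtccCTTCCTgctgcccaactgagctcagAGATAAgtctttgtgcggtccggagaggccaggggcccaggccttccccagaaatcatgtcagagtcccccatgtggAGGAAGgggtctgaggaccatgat
The Spi1 window held 3 RUNX and 2 ETS matches, of which 1 of each overlapped by a base, and the Egfl7 window held 1 RUNX and 3 ETS matches. The Gfi1b window held 3 ETS matches and 1 GATA match. The Cavin1 window held 1 match of each kind. A match is a string of letters and no evidence of binding.

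Gained sites were short of fragments at every stage. The median number of distinct positive fragments per site was 3 in HE1 (maximum 34), 3 in HE2 (maximum 46) and 2 in HP (maximum 28). A single positive fragment stood for 16.7% of gained sites in HE1, 20.2% in HE2 and 30.3% in HP. The 9898 other sites positive at these stages, which also had fragments in ES or HB, were fuller, with medians of 6, 4 and 4. The rule asks for no fragment in ES or HB, which sparse sites meet more readily. The difference in fill is thus not independent of the choice. Replicates 1 and 2 carried most of the data: 99.7% of gained sites had a positive fragment in replicate 1 and 96.3% in replicate 2, against 19.3%, 6.02% and 7.98% in replicates 3, 4 and 5. Without replicate 1, 1513 sites met the rule after merging anew. In 129 gained sites the positive fragments came from 1 replicate, and in 16 from all 5.

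**Figure D1:**
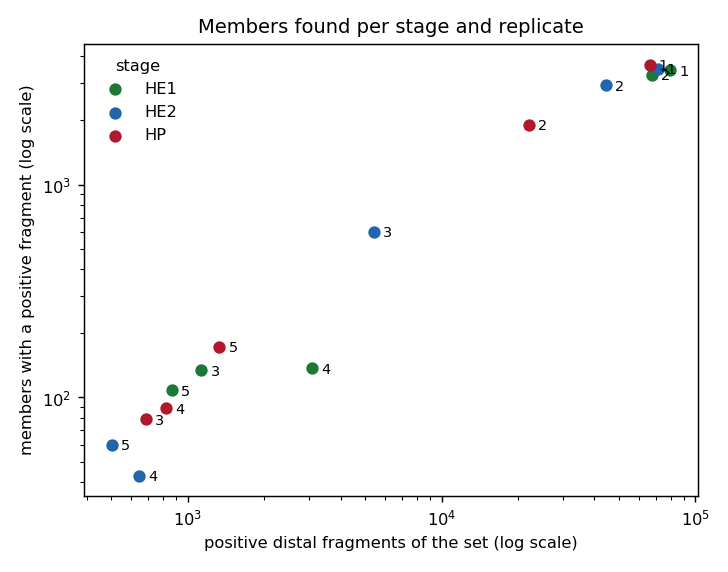
Number of gained sites (members) with a positive fragment against the number of positive distal fragments in the set, both on log scales. Each point is 1 stage and replicate (n = 15, numbers give the replicate). The sets of replicates 1 and 2 lie at the upper right, and HE1 replicate 4 lies below sets of similar size.

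The share of all distal fragments that fell in gained sites is given for positive and Negative sets as a description, since the rule used the positive fragments. In positive cells it was 11.7% ± 3.51 at HE1, 12.4% ± 2.59 at HE2 and 13.3% ± 1.04 at HP (SD, n = 5). In Negative cells it was 10.7% ± 4.41, 10.9% ± 3.11 and 12.5% ± 4.61. The positive share was above the Negative one of the same replicate in 3 of 5 replicates at HE1, in 5 of 5 at HE2 and in 2 of 5 at HP. Presence in a Negative list was no part of the rule for these stages. Negative fragments were listed at 77.6% of gained sites in HE1, 51.2% in HE2 and 53.1% in HP, at 89.4% in at least 1 of these, and at 1179 gained sites in all 3. The same was true of 94.4% of the 9898 other sites positive at the same stages, which held more fragments (median 14 against 9). The remaining 417 gained sites had no Negative fragment at any stage.

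How often the same cloned fragment was listed again at another stage was counted next. Positive fragments of the gained sites comprised 38216 distinct intervals, of which 82.0% were listed at 1 stage, and 965 (2.53%) at HE1, HE2 and HP. At least 1 interval was shared by 2 or 3 stages in 81.9% of gained sites, by all 3 stages in 21.6%, and by all 3 stages within the same replicate in 10.9%. Among the 9898 other sites these values were 88.7%, 34.1% and 19.8%. Such shares of sites rise with the number of fragments per site, and the other sites held more. Their median was 11 distinct fragments against 8 in gained sites. Counted by interval the sets were close: in the other sites 81.5% were listed at 1 stage and 2.87% at all 3. Of the gained sites, 31 rested on 1 interval.

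The plasmid lists were used to ask from which stage the cloned material at gained sites came. Each pDONR list holds the open chromatin fragments cloned from 1 stage (5660096 to 8832923 distinct fragments), before any reporter was read. Gained sites carried a mean of 1.21 fragments per site per 1000000 listed in the ES list and 1.39 in the HB list, against 5.07 in HE1, 5.59 in HE2 and 5.14 in HP. All sites together were level over the stages, between 2.79 (ES and HB) and 3.01 (HE1). The mean of the 3 later lists over that of ES and HB was 4.05 in gained sites, 1.05 in all sites and 0.945 in the 6298 sites positive at all 5 stages. It was 1.82 in the 2552 sites that were absent from ES and positive from HB onward, and 0.270 in the 1461 sites positive in ES and HB and absent later. Of the gained sites, 91.7% had a higher level in the later lists than in the earlier ones, against 52.3% of all sites. There is 1 list per stage, so these values have no replicate check, and both measures are not fully separate, since the methods held sorted fragments against the plasmid lists. In the deposited lists an identical plasmid fragment existed for 85.7% of the gained sites' fragments and for 85.5% of all distal ones.

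Cloned material from the earlier stages was still present at nearly all gained sites, as it was at nearly all distal sites. An ES fragment overlapped 88.7% and an HB fragment 95.8% of gained sites, and 1.61% had neither. Over all sites these shares were 89.7%, 92.3% and 2.75%. In the reporter vector pSKB, 67.2% of gained sites had an ES and 78.0% an HB fragment, against 74.5% and 77.0% of all sites. The ratio of later to earlier lists in pSKB was 3.88 in gained sites and 1.04 in all sites. The sources used here do not say which cloned library was introduced into the cells of each sorted library, and what the next shares mean depends on it. Of the positive fragments of gained sites in HP, 6.03% were identical to a fragment of the HP list and 39.4% to one of the HE1 list (18182, 15858 and 12022 distinct positive fragments in HE1, HE2 and HP). Over all distal sites these shares in HP were 6.54% and 31.1%. Of the gained sites' positive fragments, 43.5% in HE1 and 48.2% in HE2 were identical to an HE1 list fragment. For all distal sites the values were 40.3% and 46.4%. ES cells, which had no gained site by the rule, also carried fragments cloned from later stages: over all distal sites, 28.5% of positive ES fragments were identical to an HE1 list fragment and 17.6% to an ES list fragment. ES list fragments accounted for 7.84% of the gained sites' positive fragments in HP and for 22.5% of all distal positive fragments there.

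**Figure D2:**
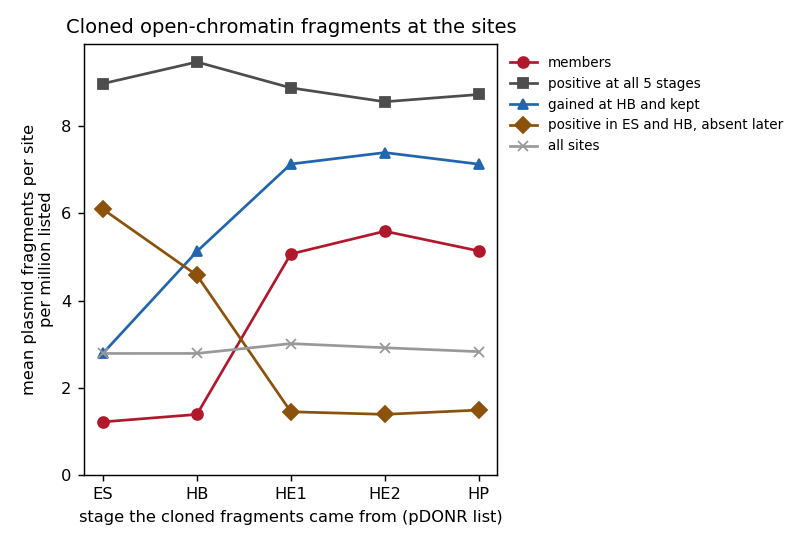
Mean number of distinct pDONR plasmid fragments per site and 1000000 listed fragments (vertical axis) by the stage that the cloned fragments came from (horizontal axis), with 1 list per stage and no error bars. Gained sites (members, red) lie at 1.21 in ES and 1.39 in HB and between 5.07 and 5.59 in the later lists, and the sites positive in ES and HB and absent later (brown) lie at 6.10 in ES and between 1.39 and 1.49 in the later lists.

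Gained sites were intronic or intergenic for the most part. By the position of their midpoint in GENCODE, 57% lay in introns, 37.2% between genes, 1.30% in coding exons and 4.51% in other exons. Over all sites these shares were 51.0%, 40.6%, 3.04% and 5.30%, and coding exons held 8.90% of the sites positive in ES and HB and absent later. Gained sites had a median width of 503 bp (71 to 1322 bp) against 297 bp for all sites, a width that grows with the number of merged fragments. The median distance to a transcription start was 9669 bp (9268 bp for all sites), and the lists called distal by the authors still held a gained site 2 bp from a GENCODE start. In the central 200 bp, the median GC content was 50% (51% for all sites and 55% for the sites lost after HB), and the mean number of CpG was 2.76 against 3.48 and 4.89.

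ETS, GATA, RUNX and AP-1 motifs were held by a larger share of gained sites than of all sites. The ETS motif AGGAAG was in the central 200 bp of 51.2% of gained sites and 37.3% of all sites. Its longer form GAGGAAGT, bound by PU.1, the ETS factor of myeloid cells and lymphocytes, was in 6.04% against 3.33% and is part of the former count. The GATA motif AGATAA was in 20.8% against 13.0%. RUNX, the motif TGTGGT of the factor family that drives the endothelial-to-blood switch, was in 23.7% against 18.1%. The AP-1 motif TGANTCA was in 16.4% against 11.6%. The sites positive in ES and HB and absent later stood at 28.3% for ETS, 6.16% for GATA, 12.7% for RUNX and 7.12% for AP-1. The sites absent from ES and positive from HB onward stood at 43.3% for ETS, 21.0% for GATA (the gained sites' 20.8% lay no higher), 18.1% for RUNX and 9.01% for AP-1.

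Other motifs differed little or ran the opposite way. The first E-box form, CAGCTG, was in 18.4% of gained and 16.3% of all sites, the second, CAGATG, in 20.7% and 17.7%, and the MEIS motif TGACAG in 20.6% and 17.4%. The TEAD motif GGAATG was in 13.2% against 13.8%, the SOX motif AACAAT in 9.38% against 9.36%, and the RBPJ motif GTGGGAA, read by the Notch pathway, in 5.28% against 5.36%. The SP motif GGGCGG of CpG-rich promoters was in 5.53% against 8.47%, the KLF motif CCACACCC in 1.53% against 2.45%, the pluripotency-linked OCT motif ATGCAAAT in 0.637% against 1.09%, the C/EBP motif TTGCNNCAA in 1.22% against 1.53% and the CTCF core AGGTGGCAG in 1.07% against 1.38%. All were searched on both strands. Among the 1204 gained sites positive in at least 2 replicates per stage, the ETS share was 55.4%, the RUNX share 25.5% and the GATA share 20.5%.

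**Figure D3:**
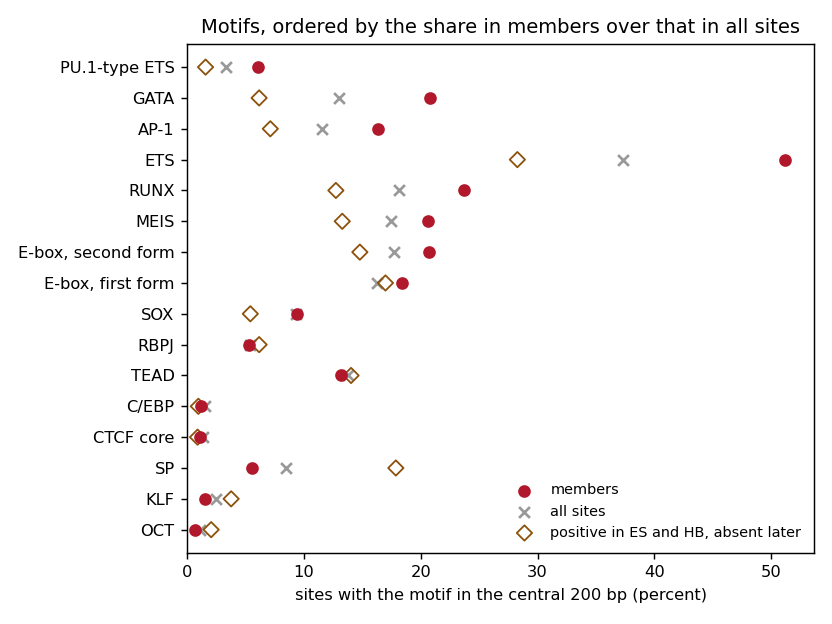
Share of sites with a motif on either strand in the central 200 bp, in percent, for gained sites (members, filled circles, n = 3922), all sites (crosses, n = 58916) and sites positive in ES and HB and absent later (open diamonds, n = 1461). Gained sites lie to the right of both other sets for ETS (51.2%), GATA, RUNX and AP-1, and to the left of both for SP (5.53%), KLF and OCT.

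Base composition differs between the sets, so the shares were also taken within ranges of GC content. Among windows of 40 to under 50% GC (1761 gained sites of 22909), ETS stood at 48.0% in gained and 37.5% in all sites, GATA at 27.0% and 18.3%, RUNX at 23.5% and 19.6%, and AP-1 at 17.5% and 14.0%. Among windows of 50 to under 60% GC (1914 of 29020) the values were 54.6% and 39.6%, 15.9% and 9.8%, 24.5% and 18.4%, and 15.5% and 10.7%. The SP motif was at 2.3% in gained and 2.4% in all sites in the lower of these ranges, and at 6.9% and 8.7% in the higher. Pairs of 6 motifs gave shares in gained over all sites between 1.09 (AP-1 with TEAD) and 2.20 (GATA with AP-1). Alone, ETS stood at 1.37, GATA at 1.60, RUNX at 1.31 and AP-1 at 1.41. Where single motifs are each more frequent, their pairs are too, and co-occurrence beyond the single motifs was not tested. An ETS and a GATA motif were both found in 10.8% of gained and 5.30% of all sites (424 gained sites), a RUNX and a GATA motif in 4.92% and 2.43% (193), and a RUNX and an ETS motif in 12.4% and 7.05% (485). The pairs with TEAD were nearer to all sites, with ETS and TEAD in 6.25% and 5.22%.

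Among the gained sites, those with a RUNX, GATA or ETS motif had a higher ratio of later to earlier plasmid fragments than those without. The 930 sites with a RUNX motif carried 1.17 fragments per 1000000 in the mean of the ES and HB lists and 6.0 in that of the later lists (ratio 5.11), and the 2992 without it 1.34 and 5.04 (ratio 3.76). For the HP list alone the means were 6.52 and 4.71, and for the HE1 list 4.99 and 5.09. Sites with the GATA motif had a ratio of 5.98 (814 sites) against 3.72 without it. Their mean was 0.919 against 1.40 in the ES and HB lists and 5.50 against 5.21 in the later lists, with 5.07 for both in the HE1 list. The AP-1 motif went with 4.31 fragments per 1000000 in the HP list against 5.30 without it, and with 5.57 against 4.97 in the HE1 list. These are descriptions over 1 list per stage.

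Gene lists were set beside gained sites by distance, counting a gene when a gained site lay within 100 kb of any of its transcription starts. This held for 35.2% of 21924 protein-coding genes. Endothelial genes stood at 29 of 46 (63.0%), blood transcription factors at 21 of 36 (58.3%), blood cell surface and signalling genes at 22 of 42 (52.4%) and AP-1 and TEAD pathway genes at 8 of 17 (47.1%). Pluripotency genes stood at 6 of 22 (27.3%), mesoderm and cardiac genes at 7 of 22 (31.8%) and neural genes at 5 of 18 (27.8%). These lists are short and lay near the share of all protein-coding genes, and their order against it changed with the rule. With at least 2 positive fragments per stage, mesoderm and cardiac genes stood at 27.3%, above all protein-coding genes (23.2%). Pluripotency (22.7%) and neural genes (5.56%) stood below. Sites absent from ES and positive from HB onward were near 72.2% of blood transcription factors, 47.6% of blood surface and signalling genes, 45.7% of endothelial genes and 28.6% of all protein-coding genes. At least 3 gained sites were near 9 endothelial genes (19.6%) and 7 blood transcription factors (19.4%), against 3.79% of all protein-coding genes. With the 1552 sites that met the rule without replicate 1 on the same intervals, the shares were 39.1% of endothelial genes, 36.1% of blood transcription factors, 31.0% of blood surface and signalling genes, 18.2% of pluripotency genes and 18% of all protein-coding genes. Nearness to a start does not show which gene a site acts on. The gene lists and all protein-coding genes also differ in how many sites of any kind they have nearby: sites positive at all 5 stages were near 53.5% of protein-coding genes, 80.4% of the endothelial genes and 68.2% of the pluripotency genes.

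**Figure D4:**
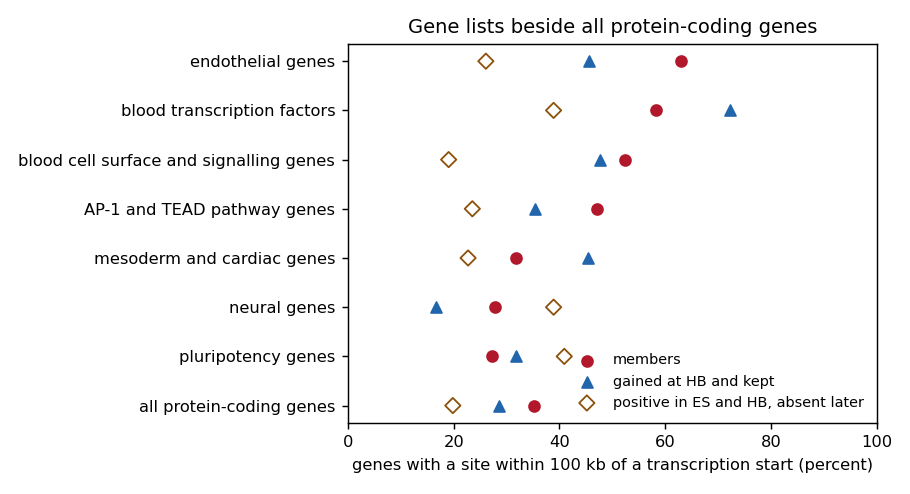
Share of the genes of each list, in percent, with a site within 100 kb of a transcription start, for gained sites (members, circles), sites absent from ES and positive from HB onward (triangles) and sites positive in ES and HB and absent later (diamonds). For gained sites the endothelial list (63.0%) and both blood lists (58.3% and 52.4%) lie above all protein-coding genes (35.2%). The pluripotency, neural and mesoderm lists lie near that share, a few genes below it.

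The 10 gained sites positive in most sets, a set being 1 of 15 pairs of a later stage with a replicate, reached 10 or 11 of them. In all, 4 gained sites reached 11 and 10 reached 10, and ties were ordered by the number of positive fragments. The first, chr5:35035444-35036278 in an intron of Rgs12, a regulator of G-protein signalling, listed 8, 15, 1, 1 and 0 positive fragments in HE1 replicates 1 to 5, then 16, 5, 2, 0 and 1 in HE2, and 12, 1, 0, 0 and 1 in HP. Fragments were thus found in 4 replicates at HE1 and HE2 and in 3 at HP, with most of them in replicates 1 and 2. It also had 11, 4 and 9 Negative fragments at the 3 stages. Its pDONR fragments numbered 8 in ES and 23 in HB against 291, 259 and 327 later. The site with most positive fragments of the 10 was chr8:120369705-120370517 in an intron of Gse1, with 14, 17, 1, 0 and 1 in HE1, 25, 19, 1, 0 and 0 in HE2 and 14, 4, 0, 0 and 2 in HP.

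The other sites of this group lay in introns of Plxnc1, which encodes a semaphorin receptor (chr10:94800599-94801392), Rhobtb1 (chr10:69276035-69276635), Ppp1r18 (chr17:35869713-35870876), Gm20670 (chr7:64057739-64058179) and D030028A08Rik (chr11:96947712-96948597), and between genes nearest to Ccnq (chr11:78771670-78772435), Adgra3 (chr5:49875991-49876774) and Rgs3 (chr4:62756592-62757527). They held 17 to 61 distinct positive fragments. At chr17:35869713-35870876, the ES and HB plasmid lists held 61 and 51 fragments, the most of the 10. At chr5:49875991-49876774 the ES list held 0 and the HB list 10, against 212 in HE1.

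Of the blood transcription factors, Spi1, which encodes PU.1, had 1 gained site, in its own intron 673 bp from a start (chr2:91082792-91083370). It listed 5, 10, 0, 0 and 0 positive fragments in HE1, 6, 3, 0, 0 and 0 in HE2 and 11, 5, 0, 0 and 0 in HP. No positive fragment came from replicates 3 to 5 at any stage. Its pDONR fragments were 4 in ES, 23 in HB, and 100, 110 and 178 at the later stages. The site is the one whose window is printed above with 3 RUNX and 2 ETS matches.

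Runx1 had 3 gained sites within 100 kb, and the one in most sets lay between genes, 30963 bp from a start (chr16:92856852-92857371). It was sparse, with 1 positive fragment in HE1, 2 in HE2 and 4 in HP, 1 Negative fragment, and pDONR fragments of 1, 1, 18, 39 and 49 from ES to HP. Gfi1b, a repressor that acts with its relative Gfi1 downstream of RUNX1 to shut off endothelial genes, had 1 gained site (chr2:28599007-28599886, 15958 bp from a start) with 7, 5, 0, 0 and 0 positive fragments in HE1, 9, 2, 0, 0 and 0 in HE2 and 3, 2, 0, 0 and 0 in HP. Its pDONR fragments were 6 and 8 in ES and HB against 99, 204 and 219 later. A start of Gtf3c5 lay slightly nearer to this site, at 15696 bp. Gfi1 had 3 gained sites, the best covered in an intron of Evi5 (chr5:107793348-107793780) with 2, 4 and 3 positive fragments at the 3 stages. Mecom, a regulator of blood stem cells, had 2, the best covered in its own intron (chr3:30105429-30105799) with 5, 3 and 1. Myb, needed for definitive blood, had 4, the best covered in an intron of Ahi1 (chr10:21056171-21056867) with 5, 3 and 2. At counts of 1 to 5 fragments a difference between stages at these sites was not detectable.

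Erg, an ETS factor of endothelium and blood stem cells, had 3 gained sites, led by one of 1322 bp in its own intron (chr16:95438929-95440250), the widest of all. It listed 12, 5 and 5 positive fragments at HE1, HE2 and HP, and its pDONR fragments were 0 in ES, 17 in HB, and 258, 190 and 115 later. Zfpm1, the GATA1 cofactor FOG1, had 4 gained sites, led by one in its intron (chr8:122314471-122315473) with 22, 19 and 12 positive fragments. Fli1 had 5 gained sites within 100 kb, and Cbfa2t3, Runx3, Ikzf1, Hhex, Cebpb and Bcl11a had 2 or 3.

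Of the sites described near blood surface and signalling genes, those near Csf2rb and Csf3r were in the most sets, 9 each. One lay 57737 bp from Csf2rb, the shared chain of the IL-3 and GM-CSF receptors (chr15:78267776-78268254), and nearer to Ncf4, 7137 bp away. It listed 6, 11, 0, 0 and 0 positive fragments in HE1, 6, 2, 1, 0 and 0 in HE2 and 2, 3, 0, 1 and 1 in HP. The ES list held 0 cloned fragments there and the HE1 list 84. Stat5a, a mediator of cytokine signalling, was 86943 bp from a site in a Cavin1 intron (chr11:100965551-100966373) with 21, 17 and 9 positive fragments and pDONR fragments of 3, 10, 228, 125 and 32. Those fragments were highest in HE1 and lowest of the later lists in HP. Csf3r, the G-CSF receptor, was 93960 bp from a site in a Stk40 intron (chr4:126131598-126132490) with 3, 4 and 9. Sites near Tyrobp (chr7:30393823-30394876) and Cd34 (chr1:194995119-194995675) were positive in 7 sets each, with 17 and 14 distinct positive fragments. Csf1r, the M-CSF receptor of macrophages, had 4 gained sites within 100 kb.

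Of the endothelial genes, the Notch target Hes1 had a gained site over its own coding exon (chr16:30066720-30067483, 764 bp from a start) with 16, 12 and 12 positive fragments. Its cloned fragments were the most frequent in ES and HB among the named sites, at 64 and 112, against 195, 148 and 160 later. A site 1357 bp from Egfl7, a gene of endothelial cells that hosts a microRNA, was also the one counted for the receptor gene Notch1, 61994 bp away (chr2:26578222-26579091). It listed 4, 9, 0, 0 and 1 positive fragments in HE1, 7, 1, 1, 0 and 0 in HE2 and 4, 1, 0, 0 and 0 in HP. Its cloned fragments were 12 in ES, 24 in HB, and 187, 110 and 67 later. Eng, a co-receptor of TGF-beta, had 1 gained site (chr2:32637761-32638336), 8546 bp from its start and 8528 bp from one of Ak1. It listed 19, 15 and 14 positive fragments and cloned fragments of 12, 16, 287, 133 and 70. Pecam1 had 3 gained sites, led by one in a Cep95 intron (chr11:106795340-106796104). That one listed 7, 13 and 8 positive fragments and cloned fragments of 1, 4, 127, 73 and 34. At Egfl7, Eng and Pecam1 the cloned fragments were most frequent in the HE1 list, the largest of the 5, and at Spi1 and Runx1 in the HP list.

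The remaining endothelial sites named by the rule were near Sox18 (chr2:181675414-181675977), the Notch ligand gene Jag2 (chr12:112958136-112958833), Gja4 (chr4:127287004-127287403) and Rasip1 (chr7:45707408-45708188). The Jag2 site lay nearer to a start of Brf1 (2944 bp) than to Jag2 (28709 bp). The Rasip1 site lay 91 bp from a start of Dbp, so that its place among distal sites depends on the annotation. The same holds for the sites described above at Spi1 (673 bp from a start), Hes1 (764 bp) and Egfl7 (1357 bp). It also holds for the site counted for Fgf4, named next. From the pluripotency list, Klf2, also a flow-responsive gene of endothelium, had a site with 19, 26 and 17 positive fragments (chr8:72295622-72296196). It lay 23124 bp from Klf2 and nearer to Gm10282, 9351 bp away. The site counted for Fgf4 lay 445 bp from a start of Ccnd1, in its intron (chr7:144937274-144938229).

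The gene with most gained sites within 100 kb was Rptor, a subunit of the growth-controlling kinase complex mTORC1, with 9. Its leading site (chr11:119552166-119553162) lay nearest to Nptx1 and listed 28, 25 and 18 positive fragments. Aunip, Mtfr1l, Paqr7 and Selenon, neighbours on chromosome 4, had 7 each and shared a leading site nearest to Stmn1 (chr4:134464498-134465242). Susd1 and Zmiz1 also had 7, and the order among ties is alphabetical.

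Reporter strength was compared between gained sites and all other distal sites through the gates, which the rule did not separate. The high share is the number of Medium, High or Medium/High fragments out of those and the Low fragments. In HE1, gained sites had a high share of 71.5%, 80.7%, 54.0%, 37.4% and 64.5% in replicates 1 to 5, against 76.6%, 81.9%, 52.0%, 19.4% and 59.5% in other sites. The mean difference was 3.76 percentage points ± 8.81 (SD, n = 5), higher in 3 of 5 replicates, and 0.19 without replicate 4. With the HE1 libraries that shared fragments left out, replicates 1, 2, 3 and 5 differed by -5.07, -1.80, 1.98 and 5.06 points. In HE2 the shares were 59.1%, 69.5%, 98.0%, 41.7% and 36.4% against 59.4%, 70.1%, 97.1%, 38.8% and 38.6%, with a difference of 0.119 points ± 1.92. In HP they were 80.9%, 73.7%, 59.3%, 56.1% and 60.5% against 57.8% to 84.5%, and gained sites were lower in 4 of 5 replicates, by -2.58 points ± 2.04. With the Medium gate left out the differences were 0.381 points ± 7.70 in HE1, -0.518 ± 2.37 in HE2 and -1.87 ± 5.14 in HP, where 2 of 5 replicates were then higher. Groups overlapped at every stage, and the replicates lay much further apart than gained and other sites within a replicate.

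**Figure D5:**
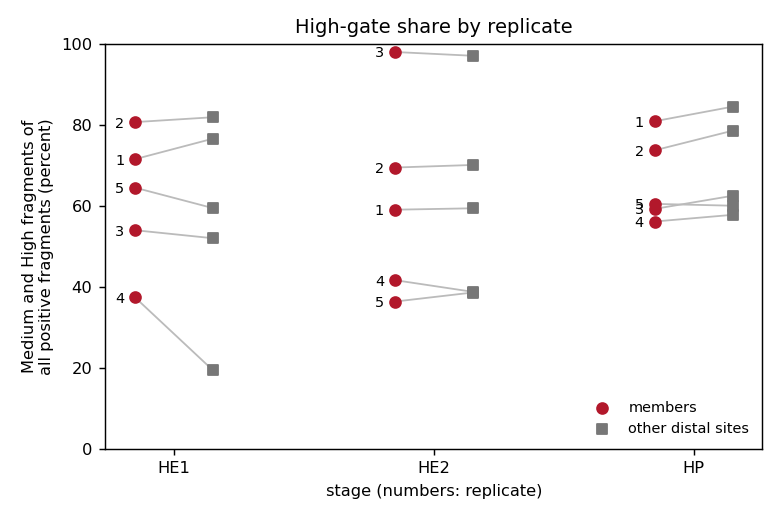
High share (Medium and High fragments of all positive fragments, percent) of gained sites (members, circles) and all other distal sites (squares) in HE1, HE2 and HP, with lines joining the same replicate (numbers, n = 5 per stage). Replicates spread over 36.4% to 98.0% in HE2, and the steepest line is that of HE1 replicate 4 (37.4% against 19.4%).

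Single sites were tested with limma on log2(fragments per 10000 listed + 1). Between high and low gates 0.0183% of sites tested were called in HE1 at an adjusted p under 0.05 (1 of 5476, not a gained site), and 0 of the 817 gained sites tested. In HE2 0% were called (0 of 5662, with 882 gained sites) and in HP 0% (0 of 2081, with 284). Between positive sets of HE1 and HE2 0% were called (0 of 12353, with 2223 gained sites), and between HE2 and HP 0% (0 of 8467, with 1562). At an unadjusted p under 0.05 the counts were 2, 1, 1, 13 and 3 sites in the same order, none of them gained sites. These counts lie far below a share of 0.05 of the sites tested, which chance alone would give with a well calibrated test. The test was thus conservative on these sparse lists, and a count of 0 gained sites carries little information. No other tool was run. The median log2 difference of the gained sites tested was -0.06 in HE1, 0.02 in HE2 and -0.11 in HP (high minus low), beside -0.06, 0.03 and -0.09 for all sites tested. It was 0.01 from HE1 to HE2 (0.01 for all) and -0.000348 from HE2 to HP (0.01 for all). Gained sites held a median of 2 or 3 positive fragments per stage over all replicates, and the absence of calls does not show that single sites were alike between gates or stages.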

How the data were processed

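The submitters amplified integrated inserts by PCR and combined original and repeat sequencing runs. The processing notes name Trim Galore, Bowtie2, SAMtools, bedtools and HOMER and the build mm10. Read pairs became intervals, duplicates were removed, intervals were held against plasmid lists, HM-1 controls and open chromatin peaks, and then split into distal and promoter lists. The sorted lists deposited by the authors hold each distinct interval once, with no depth. The deposited plasmid and control lists hold a read count per interval (counts), and distinct intervals were used except where reads are named. Filtering and deduplication remove repeated molecules, so list sizes measure diversity and not abundance.

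Starts were moved by 1 bp, printed coordinates are 1-based, and distal intervals of all libraries were merged at an overlap of 1 bp. Genes came from GENCODE vM21 and sequence from the RefSeq copy of GRCm38. The members and lists were chosen with earlier results of these data known. Named sites were the 10 in the most sets, the best covered site of up to 20 list genes and of Runx1, Spi1, Mecom, Gfi1, Gfi1b and Myb, and those of the 5 genes with most gained sites. The printed windows were picked from them after their values were seen, for at least 2 motif kinds. Per comparison, log2(fragments per 10000 listed + 1) was tested in limma 3.58.1 (R 4.3.3) with the 5 replicates of each arm, over sites listed in 4 or more of the 10 sets, with Benjamini-Hochberg adjustment over all of them. The site called in HE1 and some named sites are not reported here. Scripts ran in Python 3.11.15 and were tested on simulated data. Alternatives covered the rule, the filter, the added count, normalization, the gates, the libraries that share fragments, each replicate left out and the replicate block.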

Additional observations from a re-analysis of the deposited data

Results flagged for a closer look

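In 2 of 18 groups of 5 replicates tested, 1 sample lay far from the others, where chance gives about 1 in 20. The share of distal fragments in gained sites was 5.55% in the positive set of HE1 replicate 4 (gap to the nearest replicate over the range of the group 0.798). It was 4.49% in the Negative library of HP replicate 3 (0.763). Beside these values, HE1 Low replicate 4 had 4.33% of its distal fragments in gained sites and shared 83.0% of the smaller list with HE1 Negative replicate 3 (3.50%), while HP Negative replicate 3 shared 63.3% with HE1 Low replicate 4 and 60.03% with HE1 Negative replicate 3. The part of the shared fragments in both low shares was not tested.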

How the results depend on the processing

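The number of gained sites was 2174 with at least 2 positive fragments per stage, 1204 with positive fragments in at least 2 replicates per stage, and 1513 (without replicate 1) to 4034 (without replicate 3) with each replicate left out. Re-merging, deposited starts, plasmid-identical fragments, control or promoter filters and leaving out the 4 HE1 libraries gave 3663 to 3927, and 3854 without HB Medium 2 and HP High 2 (chosen after seeing the data). Sites called between gates in HE1 numbered 0 with 0.25 added, at least 6 sets, no normalization, the replicate block or Medium left out, 3 with no filter, and 0 to 1 with each replicate left out. With no filter 1 site was called in HE2, 1 in HP, 10 between HE1 and HE2, and 10 between HE2 and HP, and leaving out replicates gave 0 to 2 from HE1 to HE2 (2 without replicate 4). No gained site was called in any of the 65 fits. Same-numbered sets correlated at 0.0216 to 0.377. Most pairs passed 0.1 (4 of the 5 replicates per comparison, 3 between HE2 and HP). Not every pair did, and the main fit did not take the numbers as pairs. The replicate block changed no other count at an adjusted p under 0.05. At an unadjusted p under 0.05 in limma it gave 2, 11, 6, 6 and 9 sites, against 2, 1, 1, 13 and 3 in the main fits. With an identical fragment required, the share of gained sites with pDONR fragments was 30.5% (ES), 13.7% (HB), 94.6% (HE1), 85.1% (HE2) and 39.9% (HP), with at least 2 reads 81.5%, 91.2%, 99.9%, 99.6% and 99.6%, and in pSKB 67.2%, 78.0%, 97.4%, 97.5% and 93.2%. The share with Negative fragments was 65.5% to 89.3% with each replicate left out. Within 50 kb, 3 pluripotency, 4 mesoderm and 1 neural gene had a gained site, beside 45.7% of endothelial genes, 38.9% and 38.1% of the blood lists and 21.7% of all protein-coding genes. The causes were not tested. The few fragments per site, most of them from replicates 1 and 2, limit all of these values.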
